A study of Mus musculus with 24 samples.

Results

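The acute phase proteins are plasma proteins that hepatocytes make and secrete, and whose levels change when cytokines from an infection or an injury reach the liver. Interleukin 6 acts through its receptor, the shared gp130 chain and the transcription factor STAT3. Interleukin 1 and tumour necrosis factor act through NF-κB, and factors of the C/EBP family take part in both routes. In the mouse the serum amyloid A proteins SAA1 and SAA2 and the pentraxin SAP are known for large rises, while haptoglobin, hemopexin and the α1-acid glycoproteins are already abundant at rest.

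The 10 genes described here were chosen by name as members of this family from 52636 genes in the files: Saa1, Saa2, Saa3, Saa4, Orm1, Orm2, Hp, Hpx, Lcn2 and Apcs. The choice was made with earlier results of these data known, so counts of the 10 set beside shares of all genes are descriptions. All 10 were matched by Ensembl identifier and all 10 passed the filter on low counts, among 15490 genes tested. The data are read counts of liver RNA recovered with polysomes, that is RNA carrying ribosomes, from C57BL/6 mice aged 5 months. Mice were fed ad libitum (AL) or had their calories restricted by 30% (CR) from the age of 2 months for 3 months. Livers were taken at zeitgeber times (ZT, hours after lights on) 2, 6, 10, 14, 18 and 22, with 2 libraries in each of the 12 groups. Libraries are called here by diet, time point and their label, and the AL libraries at ZT22 carry the labels 2C and 2d. The labels do not say that the libraries of a group come from separate mice, and where they do not, the p-values measure only the spread between libraries. The hours of feeding are not stated in the labels.

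Totals ran from 13.8 M to 60.8 M counts (M, mega) per library, and ribosomal RNA features took from 1.02% to 62.2% of them. Levels below are in CPM (counts per M reads) after scaling by the trimmed mean of M-values, which reduces the effect of such differences in composition. In AL ZT22 2C, the library that stands apart in most of what follows, the total was 17.5 M counts and the ribosomal share 61.3%. In its partner AL ZT22 2d these were 18.2 M counts and 62.2%. Markers of hepatocytes were high in every library, with a summed level from 35258 to 94727 CPM over 8 genes, the lowest in AL ZT22 2C. The largest part of that lowest sum was Alb, at 17792 CPM against a median of 31507 in the other AL libraries. Apob (3280 against 1372) and Cps1 (1054 against 758) were above that median in AL ZT22 2C, and the other markers below it. Because this is whole tissue, fewer cells of a type and less RNA per cell cannot be told apart.

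Saa3, Saa4, Saa1 and Saa2 lie side by side on chromosome 7 (GRCm38, from 46711998 to 46754313). Orm1 and Orm2 are neighbours on chromosome 4, at 63344560-63348163 and 63362449-63365878. Hp lies at chr8:109575128-109579172, Hpx at chr7:105591613-105600137, Lcn2 at chr2:32384633-32388252 and Apcs at chr1:172893961-172895041. All 10 are annotated as protein coding, and none overlaps another annotated gene. The Saa1 and Saa2 transcripts were identical at 572 of 609 aligned positions (93.9%), and 13.2% of the 50-base words of Saa1 also occur in Saa2. The Orm1 and Orm2 transcripts were identical at 91.0% of aligned positions and shared 20.4% of their 50-base words. Counting could split reads within each of these pairs, so the separate values of Saa1 and Saa2, and of Orm1 and Orm2, carry that uncertainty.

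Promoter sequences were found for 8 of the 10 genes, those of Orm1 and Hp not being in the table used, and 5 are shown because their genes followed different patterns over the libraries. Saa1 and Saa2 varied together over the widest range, Saa4 was lower in CR at every time point, and Orm2 and Apcs had most CR libraries above the AL median. Lcn2 (10 of 12 CR libraries) and Hp (7 of 12) also had most above it, and their promoters are not shown. Each sequence shown is the 250 bases upstream of the RefSeq transcription start (GRCm38.p6), 5′ to 3′ on the gene's strand. They cover chr7:46742981-46743230 (minus strand), chr7:46751583-46751832 (plus), chr7:46732604-46732853 (minus), chr4:63362199-63362448 (plus) and chr1:172895055-172895304 (minus). The RefSeq start of Saa2 lies inside the gene as annotated in the gene table, so the end of its window overlaps that gene. Capitals mark matches to motifs searched on both strands.
Saa1: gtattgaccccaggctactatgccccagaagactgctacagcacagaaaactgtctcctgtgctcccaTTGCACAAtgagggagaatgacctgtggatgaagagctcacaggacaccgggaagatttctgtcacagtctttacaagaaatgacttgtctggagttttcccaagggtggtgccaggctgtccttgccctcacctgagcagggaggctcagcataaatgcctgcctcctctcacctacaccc
Saa2: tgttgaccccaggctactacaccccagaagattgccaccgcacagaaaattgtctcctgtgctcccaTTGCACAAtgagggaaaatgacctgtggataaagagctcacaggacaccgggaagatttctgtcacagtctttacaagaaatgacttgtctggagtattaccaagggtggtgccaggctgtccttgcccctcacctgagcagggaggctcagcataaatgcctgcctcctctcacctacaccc
Saa4: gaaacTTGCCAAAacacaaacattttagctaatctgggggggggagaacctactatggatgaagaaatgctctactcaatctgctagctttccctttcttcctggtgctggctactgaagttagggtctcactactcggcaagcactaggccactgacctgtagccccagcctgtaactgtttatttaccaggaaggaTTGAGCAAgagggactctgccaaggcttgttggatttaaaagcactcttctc
Orm2: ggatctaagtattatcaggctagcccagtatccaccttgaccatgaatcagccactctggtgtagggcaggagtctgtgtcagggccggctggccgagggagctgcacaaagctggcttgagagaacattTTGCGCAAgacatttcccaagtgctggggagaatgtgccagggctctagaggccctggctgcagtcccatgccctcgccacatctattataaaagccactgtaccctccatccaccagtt
Apcs: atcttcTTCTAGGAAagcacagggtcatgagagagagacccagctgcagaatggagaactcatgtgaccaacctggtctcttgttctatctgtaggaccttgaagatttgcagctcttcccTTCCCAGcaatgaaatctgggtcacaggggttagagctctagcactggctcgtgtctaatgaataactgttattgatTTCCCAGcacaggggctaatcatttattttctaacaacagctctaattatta

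The C/EBP-type motif TTNNGCAA was present in 7 of the 8 promoters, and in 9.56% of all 32851 promoter windows of that length. Saa1 and Saa2 carried the same letters, TTGCACAA, starting 182 and 183 bases upstream of the start, and their promoters were identical at 238 of 251 aligned positions (94.8%). The match in Orm2 starts 120 bases upstream and reads TTGCGCAA, and Saa4 had matches 245 and 52 bases upstream. Apcs was the promoter with no C/EBP-type match. It held the STAT-type motif CTGGGAA on the opposite strand, as TTCCCAG, 129 and 52 bases upstream, and the palindrome TTCNNNGAA 244 bases upstream. Those motifs occur in 9.10% and 7.02% of all windows, and in none of the 7 other promoters shown or searched. The NF-κB consensus was found in 3.90% of all windows and in 0 of the 8. The matches do not overlap each other. The motifs were chosen with the sequences in view, and are matches of letters only.

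Saa1 encodes a high-density lipoprotein apoprotein of the acute phase and varied more between libraries than any other of the 10 genes except Saa2. In the AL group its CPM was 45.9 and 44.2 at ZT2, 73.0 and 46.5 at ZT6, and 1254 and 81.5 at ZT10. It was 102 and 812 at ZT14, 60.4 and 262 at ZT18, and 11604 (2C) and 13.7 (2d) at ZT22. In the CR group it was 11.3 and 27.4 at ZT2, 12.3 and 87.0 at ZT6, 8.5 and 12.3 at ZT10, 16.3 and 19.6 at ZT14, 7.0 and 21.4 at ZT18, and 9.1 and 15.5 at ZT22. Of the CR libraries 11 of 12 were below the AL median of 77.3, and CR ZT6 2 was above it. The AL library 2d was the lowest of the 12 AL libraries and lay within the CR range, so the diets overlapped. The plot of all 10 genes by time shows these libraries.

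**Figure D1:**
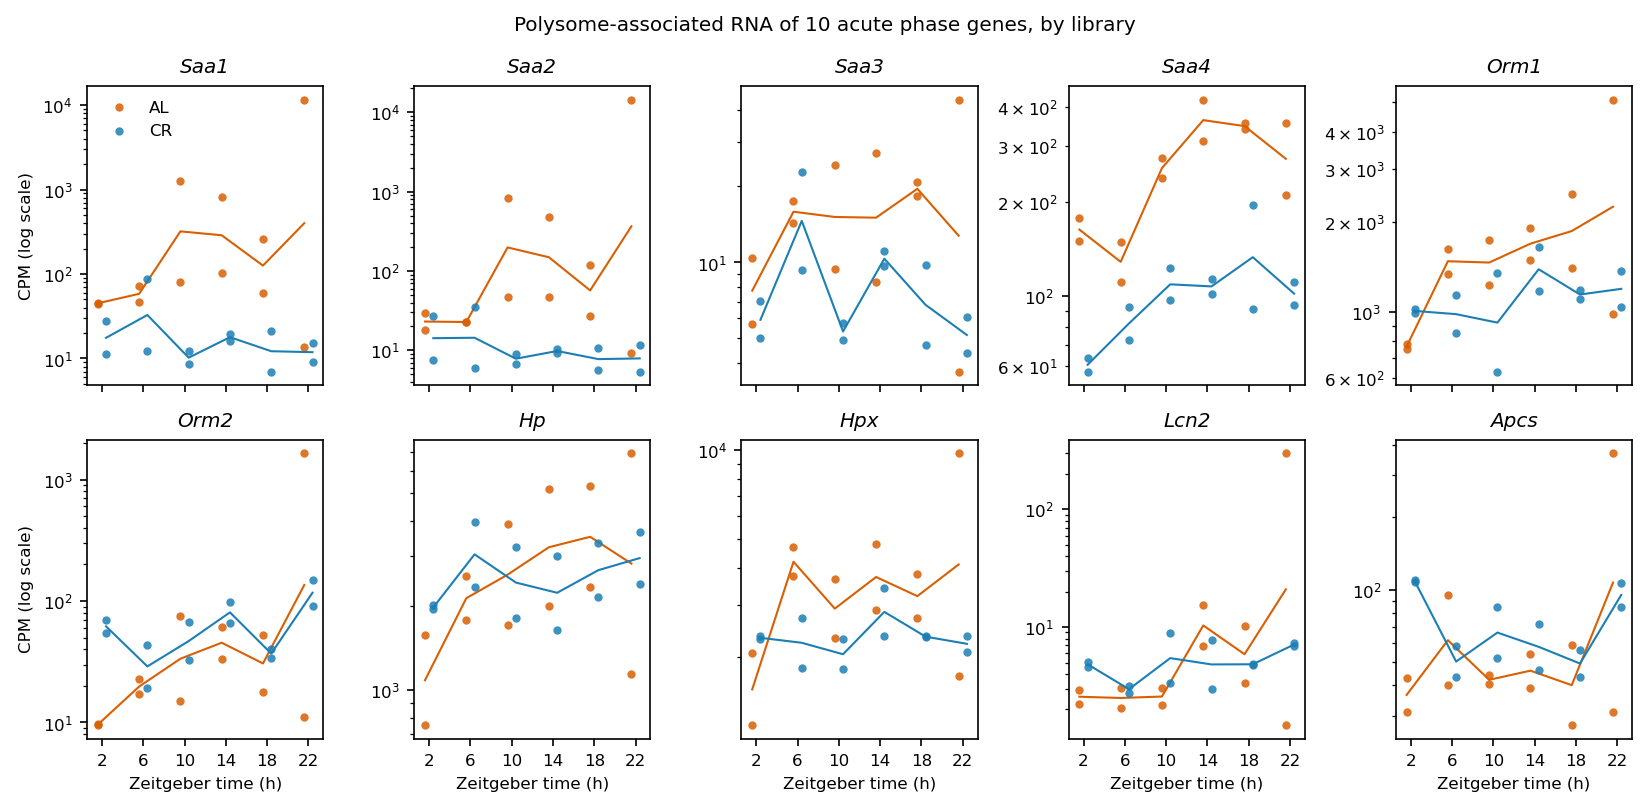
Level of each gene in CPM (log axis) against zeitgeber time in hours, with 1 point per library, AL in orange and CR in blue, shifted sideways for clarity. Lines join the geometric means of the 2 libraries of each group. AL ZT22 2C is the top point at ZT22 in every panel, and Saa4 is the gene in which both CR points lie under both AL points at all 6 time points.

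Saa2, the close relative of Saa1 in sequence and in its position, followed the same libraries. Its CPM was 14450 in AL ZT22 2C, 841 in AL ZT10 1, 479 in AL ZT14 2 and 119 in AL ZT18 2. The other 8 AL libraries ranged from 9.3 to 46.7, with 2d again the lowest, and the CR libraries from 5.4 to 34.9. Across the 24 libraries the log2 CPM of Saa1 and Saa2 had a Pearson r of 0.98, and of 0.98 without AL ZT22 2C. The ratio of Saa2 to Saa1 counts was 1.25 in AL ZT22 2C and from 0.311 to 0.675 in the other 11 AL libraries. In CR it ran from 0.401 to 1.07, at counts as low as 71 for Saa2. Together the pair took 4.93% of the reads outside ribosomal RNA features in AL ZT22 2C and at most 0.341% in any other library.

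Saa3, which is made in macrophages and other cells as well as in liver, was low throughout. It ranged from 3.7 CPM (2d) to 44.2 (2C) in AL, with a median of 16.0, and from 4.4 to 22.8 in CR, with a median of 6.5. Below that AL median were 11 of 12 CR libraries. CR ZT6 2, the CR library highest in Saa1 and Saa2, was also highest in Saa3. Saa4 encodes the constitutive serum amyloid A of high-density lipoprotein and behaved differently. In AL its CPM was 178 and 150 at ZT2, 111 and 149 at ZT6, 275 and 238 at ZT10, 313 and 422 at ZT14, 341 and 354 at ZT18, and 356 and 210 at ZT22. In CR it was 57.6 and 63.9, 92.2 and 72.9, 123 and 97.0, 102 and 114, 90.9 and 195, and 111 and 93.6 at the same time points. At each of the 6 time points both CR libraries lay below both AL libraries, as did 1.01% of all tested genes. Saa4 in 2C was 1.69 times that in 2d.

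Orm1 and Orm2 encode α1-acid glycoproteins, plasma carriers of basic drugs that also modulate immune cells. Orm1 was abundant, from 750 to 2465 CPM in 11 AL libraries and 5112 in 2C, and from 631 to 1641 in CR. For Orm1, 11 of 12 CR libraries were below the AL median of 1449. Orm2 had 1644 CPM in 2C, and from 9.5 to 74.8 in the other AL libraries, with a median of 17.9. In CR it was 69.8 and 54.6 at ZT2, 43.4 and 19.3 at ZT6, 67.3 and 32.5 at ZT10, 65.7 and 98.9 at ZT14, 34.0 and 40.2 at ZT18, and 91.8 and 149 at ZT22. 11 of these 12 lay above the AL median of 20.3, and 3 lay above every AL library other than 2C. Orm2 made up from 2.22% to 12.5% of the summed Orm1 and Orm2 counts in CR, from 1.12% to 4.14% in the 11 AL libraries, and 24.3% in 2C.

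Hp encodes haptoglobin, which binds free haemoglobin, and Hpx encodes hemopexin, which binds free haem. Hp ranged from 750 (AL ZT2 1) to 5300 (AL ZT18 1) in 11 AL libraries, was 6942 in 2C, and ranged from 1641 to 3960 in CR. Hpx ranged from 1172 to 4825 in the 11 AL libraries, was 9762 in 2C, and ranged from 1815 to 3414 in CR. For both the CR values lay inside the AL range, with or without 2C. Below the AL median were 11 of 12 CR libraries for Hpx (median 3275) and 5 of 12 for Hp (2156). Lcn2 encodes lipocalin 2, which captures bacterial siderophores. It was 300 CPM in 2C, 15.5 in AL ZT14 2, 10.3 in AL ZT18 2 and at most 6.9 in the other AL libraries, down to 1.5 in 2d. In CR it ranged from 2.8 to 8.9, and its lowest count in any library was 17 reads. Apcs encodes serum amyloid P component, the pentraxin of the mouse acute phase. It was 369 CPM in 2C and 94.8 in AL ZT6 1, from 27.3 to 59.0 in the other 10 AL libraries, and from 43.2 to 109 in CR. All 12 CR libraries lay above the AL median of 41.6.

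Levels of different genes were compared per kilobase of transcript. In AL the medians over 12 libraries were 2185 CPM per kilobase for Hpx, 1870 for Orm1 and 1603 for Hp, and the ranges of these 3 overlapped. Saa1 (127) and Saa4 (122) followed, then Saa2 (62.5), Apcs (42.9), Saa3 (28.8), Orm2 (26.2) and Lcn2 (3.32). In CR the order was Hp (1755), Hpx (1560) and Orm1 (1447), again with overlapping ranges, then Orm2 (77.6), Apcs (67.3), Saa4 (45.5), Saa1 (22.8), Saa2 (15.2), Saa3 (11.8) and Lcn2 (5.28). In both diets each gene below the leading 3 had a range that overlapped that of the gene next to it. In AL ZT22 2C, Saa2 (23844) and Saa1 (19054) were above Orm1 (6596), Hpx (6512) and Hp (5161).

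AL ZT22 2C was high in nearly all of these genes. Against AL ZT22 2d, 9 of the 10 were more than 4-fold higher in 2C, from 5.19-fold for Orm1 to 205-fold for Lcn2, 845-fold for Saa1 and 1559-fold for Saa2. Among all tested genes 8.06% differed by more than 4-fold between those libraries, and 4.94% were higher by that much in 2C. Against the median of the other 11 AL libraries, 2C was 492-fold higher for Saa2, 159-fold for Saa1, 99.1-fold for Lcn2 and 91.7-fold for Orm2. It was 9.13-fold higher for Apcs, and from 3.07-fold to 3.64-fold for Saa3, Hpx, Hp and Orm1. It was the highest of the 24 libraries for 9 genes, and for Saa4 it was exceeded by AL ZT14 2. These are 2 libraries of the same label group, and the difference between them has no replicate.

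Other AL libraries were raised in fewer of the genes. In AL ZT10, library 1 was 15.4-fold above library 2 for Saa1, 18.0-fold for Saa2 and 4.99-fold for Orm2, while Lcn2 (1.39-fold) and Apcs (1.09-fold) were close. These 3 genes past 4-fold compare with 1.63% of all tested genes. In AL ZT14, library 2 was 7.96-fold above library 1 for Saa1 and 10.3-fold for Saa2, with 7.29% of all genes past 4-fold. In AL ZT18, library 2 was 4.35-fold above library 1 for Saa1 and 4.37-fold for Saa2 but at 0.438 of it for Hp, with 8.64% of all genes past 4-fold. In CR ZT6, library 2 was 7.07-fold and 5.87-fold above library 1 for Saa1 and Saa2, with 11.6% of all genes past 4-fold. It was the lowest of the 12 CR libraries for Orm2 and Apcs. In the other 7 groups 0 of the 10 genes differed by more than 4-fold.

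**Figure D2:**
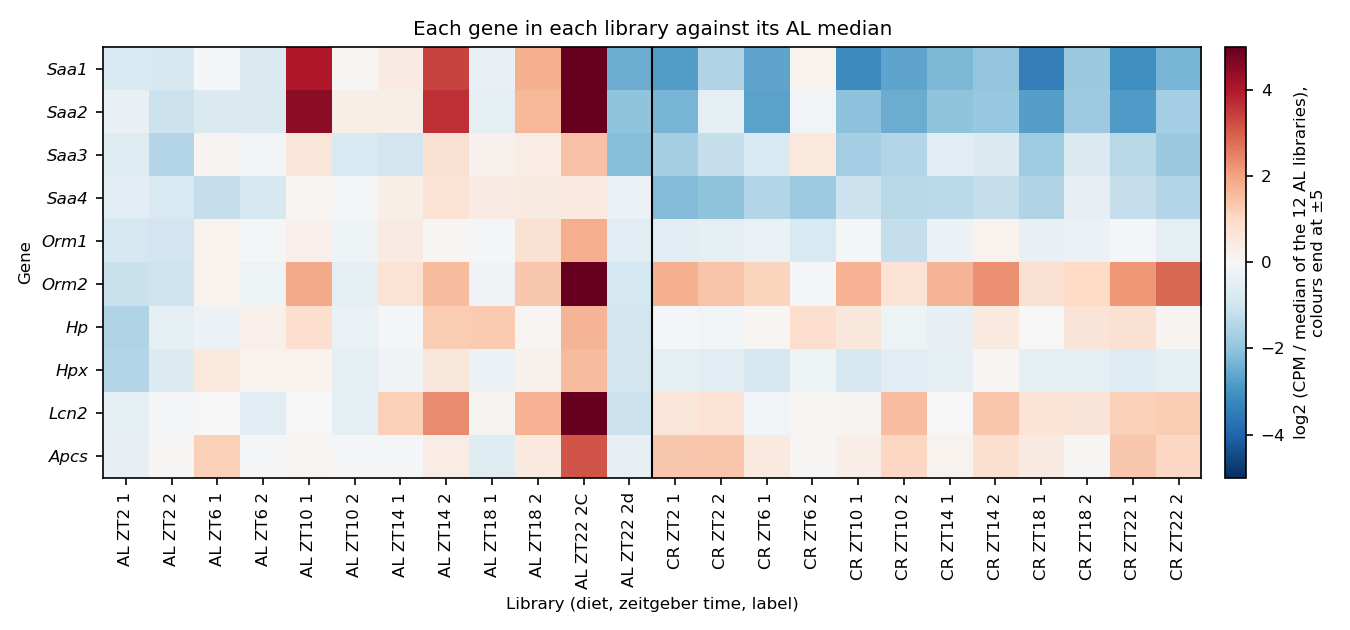
Each of the 10 genes (rows) in each of the 24 libraries (columns, AL left of the line and CR right), as log2 of its CPM over the median of the 12 AL libraries; red is higher, blue is lower, and colours end at ±5. The column AL ZT22 2C is red in every row, AL ZT10 1 is red mainly for Saa1, Saa2 and Orm2, and AL ZT14 2 mainly for Saa1, Saa2 and Lcn2. CR columns are mostly blue for the Saa genes, with CR ZT6 2 above the AL median for Saa1 and Saa3, and mostly red for Orm2 and Apcs.

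The effect of diet was first tested as the average over the 6 time points with edgeR's quasi-likelihood test, adjusted over all 15490 genes. Of the 10 genes 4 fell in CR and 0 rose, against a background of 12.7% of all genes called, 7.05% lower and 5.60% higher in CR. All 4 that fell are serum amyloid A genes. Saa1 was lower by a log2 difference of -4.09 ± 0.65 (SE, adjusted p = 0.000157) and Saa2 by -4.01 ± 0.67 (adjusted p = 0.000307). Saa4 was lower by -1.30 ± 0.15 (2.47-fold, adjusted p = 1.76e-06), and Saa3 by -1.07 ± 0.29 (2.11-fold, adjusted p = 0.0177). The other 6 did not pass: Orm1 had -0.52 ± 0.21, Hpx -0.53 ± 0.22, Lcn2 -0.61 ± 0.42, Hp -0.06 ± 0.27, Apcs 0.22 ± 0.26 and Orm2 0.26 ± 0.41. The median log2 difference of the 10 was -0.57, and that of all tested genes -0.02. For none of the 10 did the 12 CR libraries separate fully from the 12 AL libraries, which happened for 0.284% of all genes.

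The size of the Saa1 and Saa2 differences, and the calls of 3 other genes, rested on AL ZT22 2C. It was the highest library for Saa1, Saa2, Saa3, Orm2 and Apcs, so leaving it out lowers their AL means by construction. Without that library the log2 difference was -2.64 ± 0.42 for Saa1 (adjusted p = 0.000215) and -2.41 ± 0.43 for Saa2, both still called, and -1.24 ± 0.14 for Saa4. Saa3 was no longer called, at -0.63 ± 0.23 (adjusted p = 0.0870), and it also missed the threshold without AL ZT10 1 (adjusted p = 0.0502) and with limma-trend (adjusted p = 0.0676). Orm2 was then higher in CR by 1.29 ± 0.26 (2.45-fold, adjusted p = 0.00182) and Apcs by 0.66 ± 0.18 (1.58-fold, adjusted p = 0.0196). Lcn2 changed from -0.61 to 0.51 ± 0.24 (adjusted p = 0.215) and Hp from -0.06 to 0.24 ± 0.23, and neither was called. So 5 of the 10 genes were called, 3 lower and 2 higher, with 9.21% of 16760 tested genes called and 4.08% higher in CR. Leaving out 2d in its place gave 7 called, which adds Orm1, Hpx and Lcn2 as lower in CR, with 10.6% of 16838 tested genes called.

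Leaving out AL ZT10 1, AL ZT14 2 and AL ZT22 2C, the 3 AL libraries highest in Saa1, removes libraries by the measured level and so lowers the AL mean by construction. The log2 differences were then -1.78 ± 0.32 for Saa1, -1.45 ± 0.31 for Saa2, -1.18 ± 0.16 for Saa4, 1.64 ± 0.23 for Orm2 and 0.71 ± 0.20 for Apcs. These 5 were called, with 7.66% of 16686 tested genes, and Saa3 was at -0.31 ± 0.20. Saa1 kept a median of 60.4 CPM in the remaining 9 AL libraries, against 13.9 in CR.

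**Figure D3:**
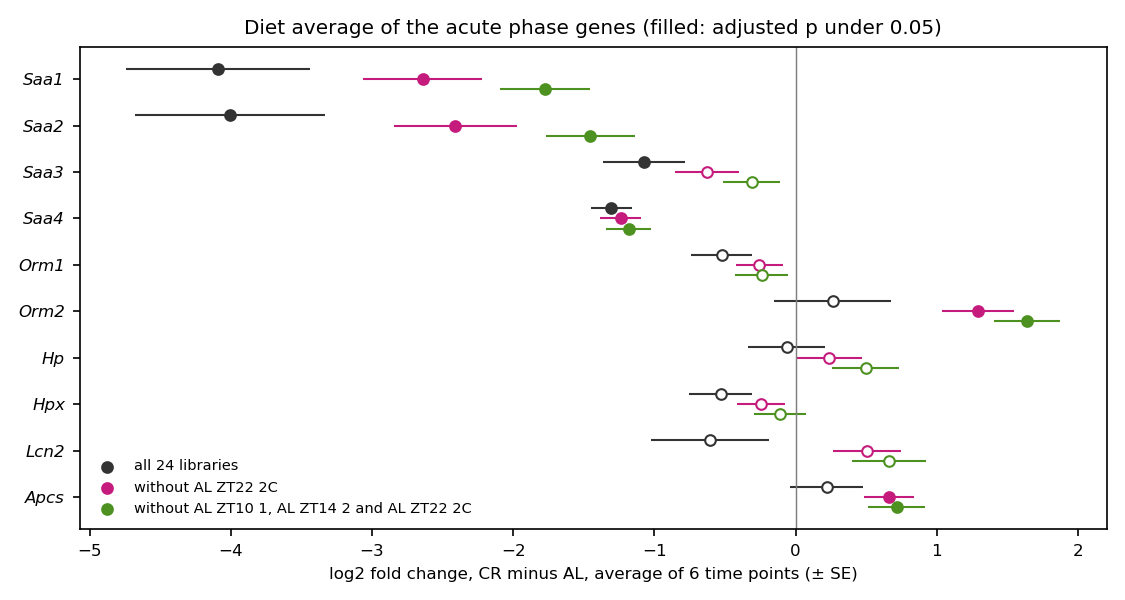
Log2 difference CR minus AL averaged over the 6 time points (horizontal axis, bars are ± SE) for each gene, with all 24 libraries (grey), without AL ZT22 2C (pink) and without the 3 AL libraries of highest Saa1 (green); filled points had an adjusted p under 0.05. Saa1, Saa2 and Saa4 stay left of 0 in all 3 fits, while Orm2 moves from 0.26 to 1.29 and 1.64.

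At single time points few of the genes passed, with 2 libraries per group. At ZT14 Saa4 was lower in CR by -1.77 ± 0.36 (3.41-fold, adjusted p = 0.0116), 1 of 10 against 1.70% of all genes. Leaving out AL ZT14 2, CR ZT14 1 or CR ZT14 2 ended this call, with adjusted p of 0.124, 0.182 and 0.104. At ZT22 Saa1 (-8.89 ± 1.97, adjusted p = 0.0290) and Saa2 (-9.74 ± 2.12, adjusted p = 0.0257) were lower, 2 of 10 against 0.936% of all genes. Without AL ZT22 2C, 0 of the 10 were called at ZT22, where 0.376% of 16760 tested genes were. That fit sets the CR libraries against 2d alone, so only its log2 differences are given. They were -0.16 for Saa1, -0.12 for Saa2 and -1.03 for Saa4. Values above 0 were those of Saa3 (0.51), Orm1 (0.30), Orm2 (3.44), Hp (1.40), Hpx (0.37), Lcn2 (2.29) and Apcs (1.63). Leaving out CR ZT22 1 or CR ZT22 2 also ended both calls, with adjusted p from 0.117 to 0.417. DESeq2 called Saa1 and Saa2 at ZT22 (adjusted p = 4.82e-06 and 1.00e-06), and Saa3 (0.0450), Saa4 (0.00346) and Lcn2 (0.0114). Its fit includes 2C, and its share of all genes called at ZT22 is not given here. Limma-trend called neither Saa1 nor Saa2 at ZT22, with -5.07 for Saa1 (adjusted p = 0.192) and -5.53 for Saa2 (adjusted p = 0.185). It called Saa4 there (-1.42, adjusted p = 0.0432), 1 of 10 against 1.08% of all genes. Without 2C and AL ZT10 1, the log2 difference of Orm2 at ZT22 was 3.44, where all libraries gave -2.78 ± 1.08 (adjusted p = 0.238). That 3.44 sets the CR libraries against 2d alone, which had 11.2 CPM of Orm2.

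At ZT2, ZT6, ZT10 and ZT18, 0 of the 10 genes were called by edgeR, where 0.562%, 0.387%, 0.742% and 0.562% of all genes were. At an unadjusted p under 0.05 there were 3, 0, 4 and 2 of them, against 7.47%, 13.7%, 10.8% and 10.5% of all genes. DESeq2 called 1 (Saa4), 0, 3 (Saa1, Saa2 and Saa4) and 1 (Saa4) of them, against 1.38%, 2.07%, 2.2% and 1.52% of all genes. Limma-trend called 0 at each, against 0.697%, 0.555%, 0.742% and 0.884%. At ZT2 both CR libraries lay above both AL libraries for Orm1, Orm2, Hp, Hpx, Lcn2 and Apcs, and below them for Saa1 and Saa4. Of all tested genes 23.2% were separated upward in this way at ZT2 and 27.1% downward. Orm2 at ZT2 had 69.8 and 54.6 CPM in CR against 9.5 and 9.8 in AL, a log2 difference of 2.69 ± 1.08 (adjusted p = 0.526). Without 2C, which is not a ZT2 library but enters the shared spread, the difference was 2.68 with an adjusted p of 0.0466. At ZT10 the log2 differences of Saa1 and Saa2 were -6.01 ± 1.74 and -5.80 ± 1.80, with adjusted p of 0.135 and 0.173 (0.0116 and 0.0167 without 2C). Those values rest on AL ZT10 1. The shares of all genes called at ZT2 and ZT10 without 2C are not given here.

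Whether the diet effect changed with the time of day was tested as an interaction. No gene was called by edgeR (0 of 15490, 0% of all), while 1337 had an unadjusted p under 0.05, among them 3 of the 10. DESeq2 called 188 genes, 0 of the 10 among them, and limma-trend 0 genes. A difference in diet effect between time points was not detected for these genes.

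A 24 h cosine was fitted in each diet. In AL, Lcn2 was called, with an amplitude of 2.79 (log2) and a fitted peak at ZT20.4 (adjusted p = 0.0280), 1 of the 10 against 0.420% of all genes. That fit rests on AL ZT22 2C: without it the amplitude was 1.03 (adjusted p = 0.164). With limma-trend it was 1.28 (adjusted p = 0.463) and Lcn2 was not called. It also missed the threshold without AL ZT6 1, AL ZT6 2, AL ZT10 1 or AL ZT10 2, with amplitudes from 2.74 to 2.89 and adjusted p from 0.0581 to 0.0762. Without 2C, Saa2 was called in its place (amplitude 2.47, adjusted p = 0.0294), with AL ZT10 1 and AL ZT14 2 as its high libraries. The share of all genes called for the AL rhythm in that refit is not given here. Saa4 had an AL amplitude of 0.75 with a peak at ZT16.4 (adjusted p = 0.0649, and 0.0330 with limma-trend). In CR its amplitude was 0.47 with a peak at ZT15.7 (adjusted p = 0.206). In CR 0 of the 10 were called, 1 had an unadjusted p under 0.05 (2700 of all 15490 genes), limma-trend called 0, and 1.94% of all genes were called by edgeR. The difference in rhythm between the diets was called for 0 of the 10 and 0% of all genes by edgeR, with 1 of the 10 at an unadjusted p under 0.05 (1005 of all genes), and for 0 genes by limma-trend.

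Other genes of the acute phase response were taken from lists. Of 20 other plasma or surface proteins that are induced in the acute phase, 18 were tested, and on the diet average 5 were higher and 1 lower in CR, against the 5.60% and 7.05% of all genes. Serpina3m, a protease inhibitor, was higher by 1.13 ± 0.16, complement C3 by 1.06 ± 0.18, Orm3, the third α1-acid glycoprotein gene, by 1.69 ± 0.33 and Pigr, the polymeric immunoglobulin receptor, by 0.95 ± 0.22. Lbp, the lipopolysaccharide binding protein, is the fifth (0.60 ± 0.14), and the gene that fell is Steap4, a metalloreductase (-1.06 ± 0.26). These last 2 are named after their values were seen. The fibrinogen genes Fga, Fgb and Fgg had -0.64 ± 0.23, -0.26 ± 0.18 and -0.43 ± 0.20 and were not called. The list median was -0.25.

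In AL ZT22 2C this list was also high in part. Its median log2 difference between 2C and 2d was 1.36, against 3.56 for the 10 and 0 for all genes, and 4 of 18 were more than 4-fold higher. These were Orm3 (4.03), Itih3 (3.10), Lrg1 (2.91) and Steap4 (2.57), of which Itih3 is an inter-α-trypsin inhibitor heavy chain and Lrg1 a leucine-rich glycoprotein of plasma. The 1 gene as much lower was Vnn1, a pantetheinase, with 2.58 CPM in 2C and 15.7 in 2d. Crp (-0.20) and Hamp (-0.38), which encode C-reactive protein and the iron hormone hepcidin, were close to equal. Of the 10 plasma proteins known to fall in inflammation, 0 were more than 4-fold higher in 2C and 1 was as much lower, Apoa4 (-2.52). The list median was -0.71, with 6 genes lower in 2C and 4 higher, Trf (0.35), Ahsg (0.52), Fetub (0.15) and Apoa1 (0.32). Alb (17792 in 2C and 50823 CPM in 2d), Ttr and Rbp4 were lower in 2C. On the diet average 2 of these 10 were higher in CR, Trf (0.66 ± 0.18) and Fetub (0.51 ± 0.16), and 1 lower, Mup20 (-4.57 ± 0.39), a major urinary protein. Among all genes 5.60% were higher and 7.05% lower.

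**Figure D4:**
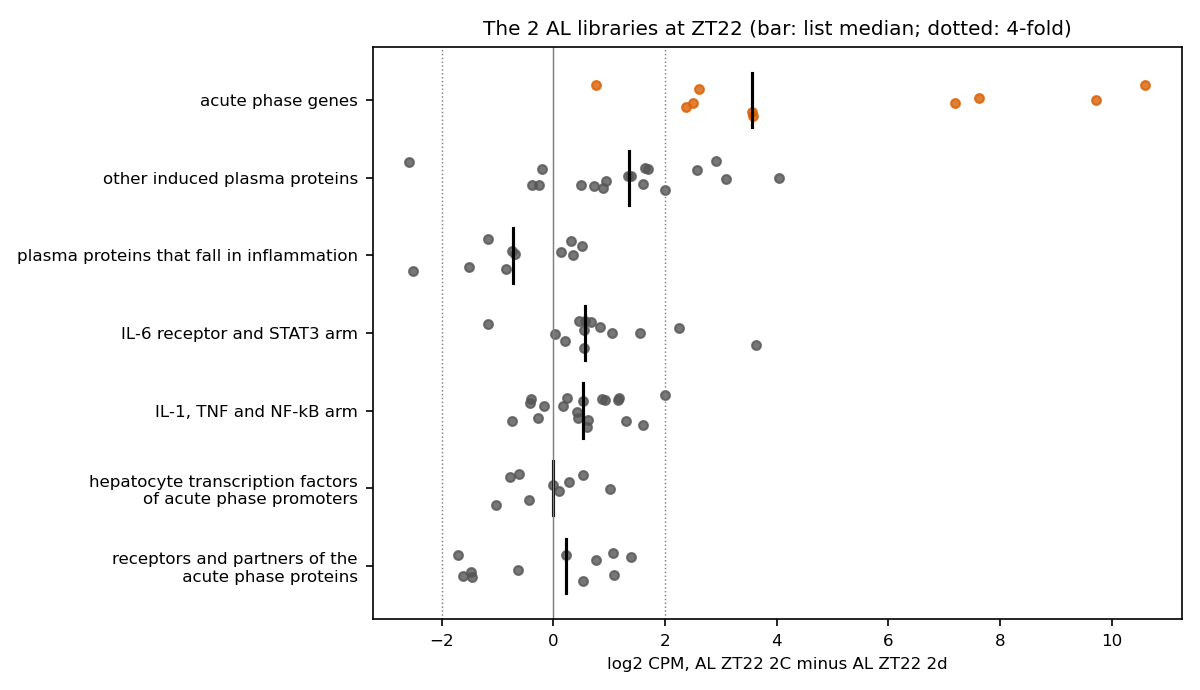
Log2 CPM in AL ZT22 2C minus AL ZT22 2d (horizontal axis) for the tested genes of each list, 1 point per gene, spread vertically for clarity; black bars are list medians and dotted lines mark 4-fold. The 10 acute phase genes (orange) have a median of 3.56 and 9 lie beyond 4-fold, and the other induced plasma proteins have a median of 1.36.

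In the interleukin 6 receptor and STAT3 arm, 13 of 14 genes were tested, and on the diet average 1 was higher and 2 lower in CR. For this list and the next 3, the shares of all genes are again 5.6% higher and 7.05% lower. Il6ra, the ligand-binding receptor, was higher by 1.10 ± 0.22, while Lifr, a related receptor, was lower by -1.32 ± 0.15 and Bcl3, an NF-κB partner, by -0.98 ± 0.18. Il6 itself had at most 0.051 CPM in any library. Between 2C and 2d, Junb (3.62) and Osmr (2.25) were more than 4-fold higher in 2C, Socs3, the feedback inhibitor, had 1.55 and Stat3 1.06. In the interleukin 1, tumour necrosis factor and NF-κB arm, 19 of 20 were tested, with 1 higher in CR, the inhibitor Nfkbia (0.94 ± 0.22), and 1 lower, the receptor Tlr2 (-0.89 ± 0.24). In that list Tnfaip3, which encodes the NF-κB inhibitor A20, was more than 4-fold higher in 2C than in 2d (2.01). Of 9 hepatocyte transcription factors of acute phase promoters, 1 was called, Cebpa, lower by -0.65 ± 0.14, and Cebpb (0.42 ± 0.17) and Cebpd (0.32 ± 0.21) were not. None of the 9 was more than 4-fold apart between 2C and 2d.

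Of 11 receptors and partners of these proteins, 1 was higher in CR, the fatty acid receptor Cd36 (1.12 ± 0.27), and 2 lower, Lrp2 (-3.80 ± 0.40) and the formyl peptide receptor Fpr2 (-1.24 ± 0.34). Lrp2, a receptor for lipocalin 2, reached at most 2.28 CPM in AL and 0.285 CPM in CR. Cd163, the scavenger receptor for haptoglobin bound to haemoglobin, had 0.19 ± 0.29 and Lrp1, the receptor for hemopexin bound to haem, -0.13 ± 0.24. Between 2C and 2d, 0 of the 11 were more than 4-fold apart.

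Markers of other liver cells moved with some of these results. The summed level of 12 Kupffer cell and macrophage markers was 705 CPM in AL ZT22 2C, from 243 to 573 in the other AL libraries and from 136 to 248 in CR. It was 540 in AL ZT10 1, 573 in AL ZT18 2 and 277 in AL ZT14 2. On the diet average 11 of the 12 were lower in CR and 1 higher, Marco (0.84 ± 0.27), against 7.05% lower and 5.60% higher among all genes. Clec4f, a Kupffer cell lectin, fell by 1.17 (log2) and Lyz2, a lysozyme of macrophages, fell by 1.58. The summed level of 12 neutrophil markers was 121 CPM in 2C and from 2.74 to 15.5 in the other AL libraries. In AL ZT10 1 and AL ZT14 2 it was 6.97 and 2.74. The sum in 2C was led by S100a8 (52.5) and S100a9 (41.3). Retnlg (7.89), Ltf (5.39), Ngp (4.61) and Camp (3.44) were at most 0.880 CPM in any other AL library. All 8 tested markers were more than 4-fold higher in 2C than in 2d, as were 4.94% of all genes. Ly6g was at 0 in every AL library. The part of these cells in the levels of Saa1, Saa2, Saa3 and Lcn2 was not tested.

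Of the other lists, the sum of 9 lymphocyte markers was 5.24 CPM in 2C and from 2.51 to 7.99 in the other AL libraries, with Ncr1 at 0 in 2C. For 7 endothelial markers it was 144 against 62.9 to 131, and for 8 stellate cell and fibroblast markers 140 against 88.9 to 327. For 6 cholangiocyte markers it was 116 against 28.9 to 59.3, with Cftr at 0. Spp1 gave 86.1 CPM of that cholangiocyte sum, and only Spp1 and Sox9 were higher in 2C than in every other AL library. Krt19 (1.64), Krt7 (0.391) and Epcam (1.33) lay within the range of the other AL libraries. For 6 adipocyte markers the sum was 1.41 against 1.02 to 13.0, with Adipoq, Plin1, Lep and Retn at 0. For 7 exocrine pancreas markers it was 11.7 against 16.4 to 90.2, with 5 of them at 0. In CR these sums ranged from 1.12 to 4.66 for lymphocytes, 62.1 to 143 for endothelium, 184 to 321 for stellate cells, 18.5 to 50.8 for cholangiocytes, 0.668 to 75.3 for adipocytes and 4.58 to 20.8 for pancreas.

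**Figure D5:**
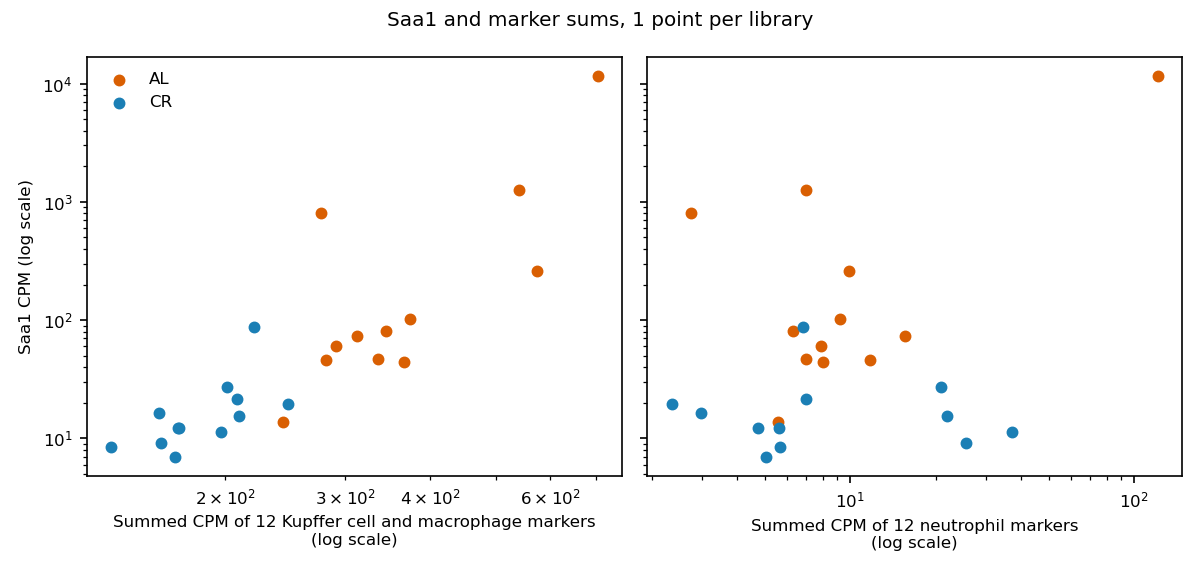
Saa1 level (vertical, CPM, log axis) against the summed CPM of 12 Kupffer cell and macrophage markers (left) and 12 neutrophil markers (right, both log axes), 1 point per library, AL in orange and CR in blue. The top point, AL ZT22 2C, is also the farthest right in both panels, at 705 and 121 CPM, and CR libraries lie at 248 CPM or less on the left.

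The genes most like 3 of the members over the 24 libraries were named by Pearson's r of log2 CPM, among 5382 other genes of at least 10 CPM. The libraries share group, depth and composition, so these are descriptions. Nearest to Saa1 were Clec4f (r = 0.85), C1qb (0.81), Cd5l (0.79), Csf1r (0.78) and H2-Q7 (0.78), and without 2C they had 0.81, 0.82, 0.62, 0.71 and 0.74. The first 4 are in the list of Kupffer cell and macrophage markers. Nearest to Hp were H2-D1 (0.78), Qsox1 (0.78), Lrg1 (0.71), C4b (0.70) and Ambp (0.70). Nearest to Apcs were Itih3 (0.92), Itih4 (0.86), Fgl1 (0.83), Cp (0.71) and Ctsc (0.70), and without 2C they had 0.84, 0.82, 0.77, 0.50 and 0.64.

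Among the 10 genes themselves, likeness changed when 2C was left out. Saa1 and Orm2 had an r of 0.42 with all libraries and -0.09 without 2C, and Saa1 and Apcs 0.29 and -0.30. Orm2 and Apcs had 0.81 and 0.64, and Saa4 and Apcs -0.21 and -0.62. Saa1 and Saa3 kept 0.85 and 0.81, and Saa1 and Hpx 0.78 and 0.62. Orm2 and Lcn2 had 0.84 and 0.63, and Saa2 and Apcs 0.36 and -0.27.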

How the data were processed

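RNA from liver polysome fractions was sequenced in 24 libraries, and the values in the deposited files are raw read counts per gene, one file for each library, with no normalization. The build GRCm38.p5 and the tools HTSeq, FastQC and DESeq2 are named, without versions, in the submitters' processing notes. An aligner is not given in the sources used here. Libraries were made from poly(A) RNA without keeping strand, per the labels' protocols. The files list 52636 genes and no summary lines, and 52403 were matched to a symbol by Ensembl identifier with the GENCODE annotation of GRCm38.

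Counts were filtered by group with edgeR 4.0.16 (R 4.3.3), scaled by the trimmed mean of M-values and fitted with its quasi-likelihood test as 12 group means, with Benjamini-Hochberg adjustment over 15490 genes and a threshold of 0.05. Standard errors are the log2 difference over the square root of F. Contrasts were the diet average, each time point, their interaction and 24 h cosine terms per diet. Levels are CPM from these factors, log2 values used a prior count of 2, and per-kilobase levels used the first protein-coding transcript. On simulated counts of 14790 genes the diet average found 58 of 100 genes with a log2 change of 1 and 88 of 100 with a log2 change of 2, and 6 of its 152 calls were false. In each diet the rhythm test recovered 40 (AL) and 49 (CR) of 100 genes of amplitude 1.

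Genes named from a list are its called members of smallest p on the diet average, up to 4, and the genes most like Saa1, Hp and Apcs are the 5 of highest r. The members and lists were chosen with earlier results of these data known. Alternatives were DESeq2 1.42.0, limma-trend 3.58.1, other scalings and filters, an additive model, a replicate block and leaving out libraries. Promoters came from RefSeq (GRCm38.p6), aligned with Biopython 1.88.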

Additional observations from a re-analysis of the deposited data

How the results depend on the processing

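On the diet average Saa1, Saa2 and Saa4 kept their direction and call under all 36 alternatives, and Saa3 lost its call under 5. The number of acute phase genes called was 4 with all libraries, 3 to 7 when single libraries were left out, and 7 without a filter on low counts. All genes called numbered 1960, and 1170 with no composition factor, 1293 without AL ZT10 1 and AL ZT22 2C, 1278 without the 3 AL libraries of highest Saa1, and 1412 to 2708 when single libraries were left out. Leaving out the composition factor moved the median log2 difference of all genes from -0.80 at ZT2 to 0.91 at ZT22, and ended the ZT14 call of Saa4 (adjusted p = 0.325). The diet average of Hp, not called in any fit, turned from -0.06 to 0.070 with limma-trend, 0.35 without the 2 libraries and 0.50 without the 3, and ranged from -0.20 to 0.24 when single libraries were left out. That of Lcn2 turned from -0.61 to 0.55 without the 2 and 0.66 without the 3, and ranged from -0.78 to 0.51. Over the 6 time points, 3 calls were made in the main test, 11 with DESeq2, 18 without the low-count filter, 5 without the 2 libraries, 1 with a robust spread, and 1 to 14 when single libraries were left out. With the robust spread, chosen after seeing the data as was leaving out the 3, the ZT22 calls of Saa1 and Saa2 were lost (adjusted p = 0.141 and 0.135). For the interaction 0 were called, 5 without the low-count filter, and 0 to 1 when single libraries were left out, the 1 being Lcn2 without 2d. For the rhythm in AL 1 was called, 5 without the filter, 0 with the replicate block, 0 with the robust spread, 0 without the 2 or the 3 libraries, and 0 to 1 when single libraries were left out. For the rhythm in CR and the rhythm difference 0 were called, and 1 and 4 without the filter. Without the filter on low counts the p-values of the acute phase genes were far smaller than in the main test. Where a value moved, the cause was not tested. The counts over time points, interaction and rhythms are given here without the share of all genes called in each setting. They describe only how the calls moved. Library numbers did not pair libraries throughout. Over 55 pairs of groups the correlation of same-numbered deviations ran from -0.254 to 0.514, with a median of -0.003, and 9 were above 0.1. The replicate block gave 4 acute phase genes and 1790 genes called on the diet average. Where a group was left with 1 library, that library was assumed to vary like the other groups.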

Other observations

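The summed level of neutrophil markers was also raised in some CR libraries, mostly through S100a8 and S100a9. These reached 16.9 and 17.0 CPM in CR, where Retnlg reached 2.39 and Ly6g, Ngp, Camp and Ltf at most 0.345. The summed level of the 12 markers was 37.2 and 20.8 CPM in the CR libraries at ZT2, 25.6 and 21.8 at ZT22, and from 2.35 to 6.96 in the 8 other CR libraries. In those 4 libraries Saa1 had 11.3, 27.4, 9.1 and 15.5 CPM, and Lcn2 4.6, 5.1, 6.9 and 7.4 CPM. They were the 4 CR libraries of highest Apcs, at 107, 109, 106 and 85.1 CPM. No test was made of these values.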
